A study of Xenopus tropicalis with 6 samples.

Results

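The 70 genes described here encode the core proteins of the spliceosome, the machine that removes introns from pre-mRNA. They were chosen by gene symbol alone from the 15076 genes tested: the small nuclear ribonucleoprotein (snRNP) genes of the *snrp* and *snrnp* families, the *sf3a*, *sf3b*, *prpf*, *lsm*, *u2af* and *cwc* genes, *sf1*, *eftud2* and 8 RNA helicases of the *ddx* and *dhx* families. The rule uses no measured value, but the table from which the symbols were read holds only genes above a low-count filter, so all 70 pass it by construction. The symbols also bring in proteins that do other work. Of the 6 *lsm* genes outside the nuclear ring, *lsm1* acts in mRNA decay, *lsm10* and *lsm11* in histone mRNA processing and *lsm14a* and *lsm14b* in storing untranslated mRNA, and *ddx39a* and *ddx39b* are best known for mRNA export.

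RNA was sequenced from stage 46 *Xenopus tropicalis* brains in 3 *dyrk1a* CRISPR and 3 uninjected control libraries, each made from 3 pooled brains. At the 2 cell stage, both cells of the CRISPR embryos were injected with Cas9 protein and a guide RNA against *dyrk1a*, so these animals carry mixtures of edits, and by the methods of the study the most heavily mutagenized animals were the ones pooled. The labels call them *dyrk1a* knockdown, and the sample titles call the controls WT (wild type). The controls received no injection, so loss of *dyrk1a* and the injection itself cannot be told apart. The pools come from separate animals, and p-values measure the spread between pools.

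Introns are removed by snRNPs that assemble on each intron in turn. U1 binds the start of the intron, U2 with SF1 and the U2AF proteins binds the branch site and the end, and the joined U4/U6 and U5 particle then enters, after which helicases remodel the complex into its catalytic form. Each of U1, U2, U4 and U5 carries the same ring of Sm proteins, while U6 carries a ring of LSm proteins. Dyrk1a is a kinase that in mammals phosphorylates splicing factors, among them the U2 protein SF3B1, which is why splicing genes are of interest in these brains.

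The libraries held 9603583 to 35071943 counts, and the 70 genes took 0.687% to 0.792% of each. The gene model *dyrk1a* lay at 16.8, 13.2 and 15.04 cpm (counts scaled to a common library total) in CRISPR libraries 1 to 3 and at 21.4, 10.8 and 14.8 cpm in controls 1 to 3, with overlapping groups. A separate model, *dyrk1a.2*, lay at 26.3, 32.9 and 26.6 cpm against 27.3, 29.6 and 27.3 cpm, also with overlap. Small edits need not alter the total of a gene, so these levels do not check the labels. Of 20 neuron markers 19 passed the filter, 7 of them with a log2 fold change above 0, 1 higher and 4 lower with an unadjusted edgeR p under 0.05, and their sum, 9108 to 9234 cpm in CRISPR and 9976 to 10515 cpm in control libraries, is led by *snap25*. The 8 neural progenitor markers tested of 10 were all above 0, 5 of them with such a p, and summed to 3094 to 3700.3 and 2137 to 2874 cpm, led by *fabp7*. Summed markers of dividing cells lay at 242 to 309.8 cpm in CRISPR and at 139 to 161 cpm in control libraries, with 21 of the 25 listed genes tested and all 21 above 0 in log2 fold change. Of the 21, 17 were higher with such a p. Summed skeletal muscle markers lay at 20.2 to 33.3 cpm in CRISPR and at 65.0 to 217 cpm in control libraries, highest in control 2, with 8 of 14 tested. None of these 8 was above 0, their median log2 fold change was -2.18, and 7 were lower with such a p. Over all genes 6.79% were higher and 6.14% lower with such a p. Blood markers overlapped between the groups, at 145 to 412 and 203 to 344 cpm with 4 of 8 tested, and the 2 epidermal markers tested of 11 summed to 115 to 183 against 69.5 to 87.2 cpm. No listed marker that was tested was at 0 in all libraries, which the low-count filter ensures. The part these cell types take in the results below was not tested, and in pooled tissue fewer cells of a type and less RNA per cell cannot be told apart. On the first principal component, with 34.8% of the variance, CRISPR 1 to 3 stood at 8.44, 3.16 and 42.7 and controls 1 to 3 at -0.856, -31.0 and -22.4. The groups thus lay on opposite sides of 0, with CRISPR 3 and control 2 at the ends.

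None of the 70 genes passed an adjusted p under 0.05 in edgeR's quasi-likelihood test with Benjamini-Hochberg adjustment over all genes, in either direction. Over all genes 0% were called higher and 0.00663% lower. In the same test an unadjusted p under 0.05 was reached by 11 of the 70 with a higher and 2 with a lower CRISPR mean, where 6.79% and 6.14% of all genes reached it. In 8 genes every CRISPR library stood above every control and in 3 below, beside 9.13% and 9.72% of all genes. A log2 fold change above 0, CRISPR over control, was found in 45 of the 70, beside 51.9% of all genes, and the median was 0.09 beside 0.01. DESeq2, as an alternative tool, called *snrpb* higher (log2 fold change 0.54, adjusted p = 0.00374) and *prpf39.1* lower (-0.43, adjusted p = 0.0209). DESeq2 called 1.15% of all genes it fitted higher and 0.809% lower. Without the low-count filter edgeR called *snrpb* alone among the 70 (adjusted p = 0.0191), where 0.502% of all genes were called higher and 0.251% lower. Over all alternatives the adjusted p from edgeR, DESeq2 and limma ran up to 0.326 for *snrpb* and 0.377 for *prpf39.1*.

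Most of the genes were measured closely enough to bound a change. For 61 of the 70 the 95% interval of the log2 fold change lay within 2 fold either way and for 47 it lay within 1.5 fold. The estimate itself was under 1.5 fold for 64. The plot of fold changes by role shows where the others are.

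**Figure D1:**
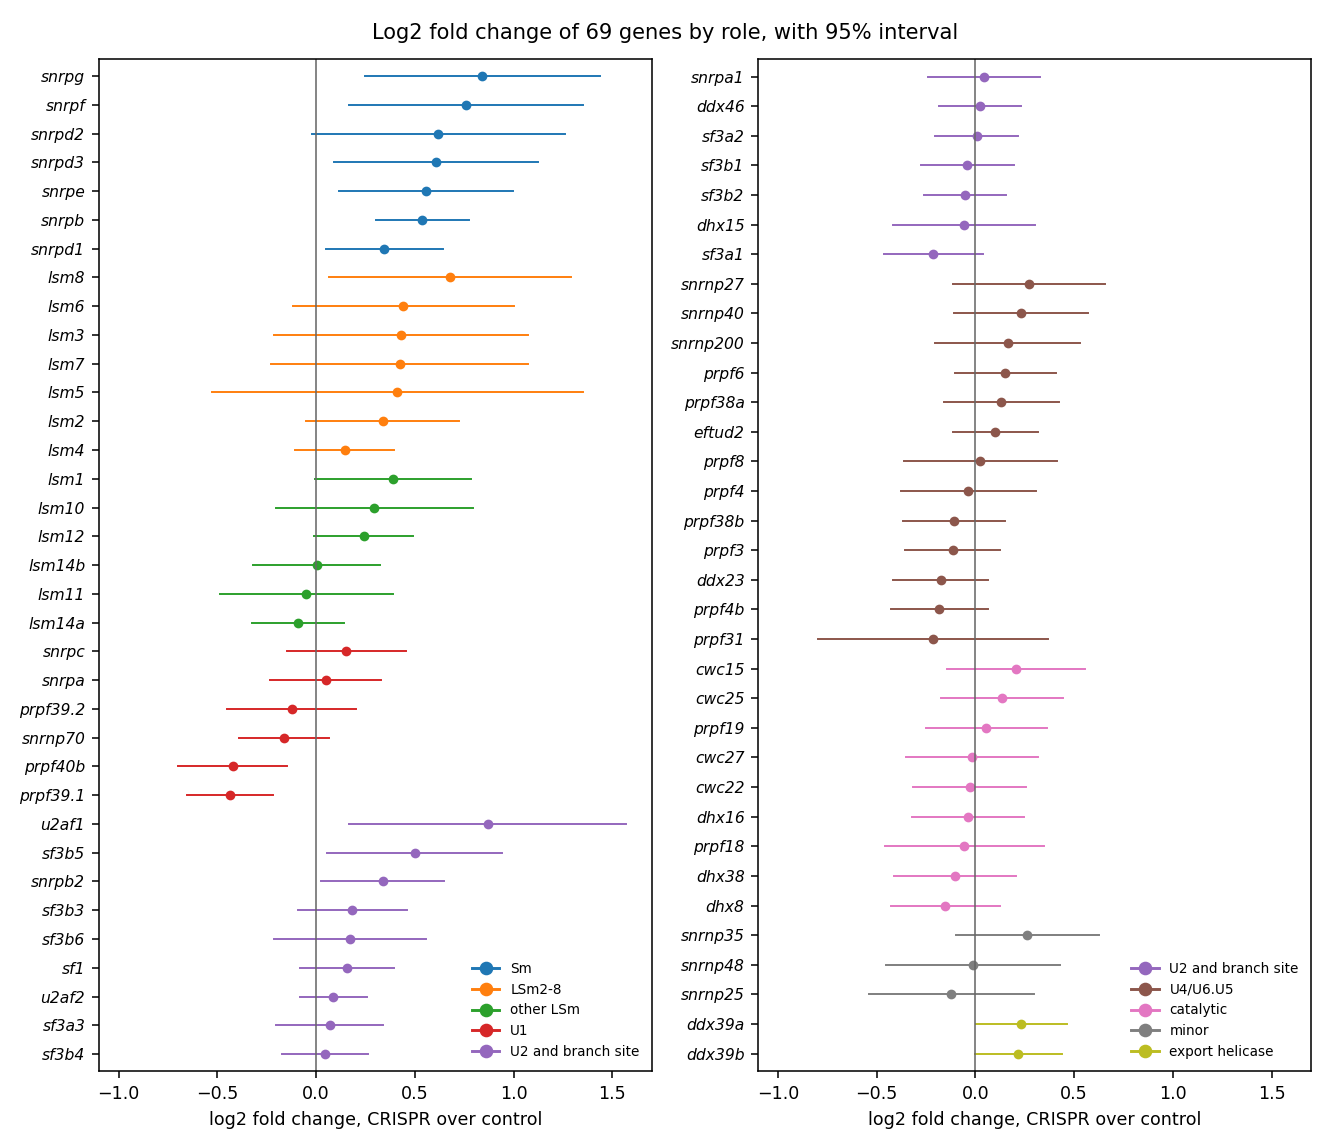
Log2 fold change of 69 of the 70 genes, CRISPR over control, with its 95% interval from edgeR (3 libraries a group), ordered by role in the spliceosome. All 7 Sm and all 7 LSm2 to LSm8 genes sit above 0, while *prpf39.1* and *prpf40b* of the U1 group have intervals below 0.

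The Sm genes encode the ring shared by U1, U2, U4 and U5, and all 7 that were tested had higher means in the CRISPR libraries, with a median log2 fold change of 0.61 and a range from 0.35 to 0.84. *snrpb*, which encodes the SmB protein, had 217, 213 and 259 cpm in CRISPR libraries 1 to 3 and 164, 147 and 164 cpm in controls 1 to 3. Its groups did not overlap, and the lowest CRISPR library stood well above the highest control. The log2 fold change was 0.54 (SE 0.105, n = 3 a group, edgeR adjusted p = 0.102), and it lay between 0.40 and 0.59 over all alternatives.

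The ring partners SmE, SmF and SmG, which join the ring as a trio, showed fold changes as large or larger, with wider spread. *snrpg* had 27.9, 28.6 and 44.5 cpm in the CRISPR and 25.1, 12.1 and 18.8 cpm in the control libraries (log2 fold change 0.84, SE 0.268, edgeR adjusted p = 0.250). *snrpf* had 47.2, 48.6 and 81.4 cpm against 48.3, 25.1 and 30.7 cpm (0.76, SE 0.266, adjusted p = 0.292). *snrpe* had 82.8, 79.0 and 113 cpm against 78.7, 46.3 and 61.8 cpm (0.56, SE 0.198, adjusted p = 0.294). In each of these genes CRISPR 3 was far above the other CRISPR libraries, and control 1 was close to CRISPR 1 and CRISPR 2.

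The genes for the D proteins of the ring had a like order of libraries. *snrpd3* had 42.1, 41.6 and 60.4 cpm in the CRISPR and 42.5, 22.5 and 29.0 cpm in the control libraries (log2 fold change 0.61, SE 0.232, edgeR adjusted p = 0.325). *snrpd2* had 33.5, 27.1 and 48.1 cpm against 34.1, 15.4 and 20.7 cpm, and *snrpd1* 179, 174 and 215 cpm against 174, 127 and 145 cpm. Of the 7 Sm genes 6 were higher at an unadjusted edgeR p under 0.05, beside 6.79% of all genes. In 3, *snrpb*, *snrpg* and *snrpe*, every CRISPR library stood above every control, beside 9.13% of all genes. For *snrpe* the gap was narrow, from 78.99 cpm in CRISPR 2 to 78.68 cpm in control 1.

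The LSm2 to LSm8 proteins form the ring on U6, and the 7 genes for them were also all above 0, with a median log2 fold change of 0.42. *lsm8*, the subunit that keeps this ring in the nucleus, had 15.9, 16.3 and 24.7 cpm in the CRISPR and 16.8, 8.15 and 10.3 cpm in the control libraries (log2 fold change 0.68, SE 0.276, edgeR adjusted p = 0.344). It was the only one of the 7 with an unadjusted p under 0.05, beside 6.79% of all genes higher at that p. In none of the 7 did the groups stay apart, where 9.13% of all genes stood apart upward and 9.72% downward. *lsm2* had 41.4, 41.0 and 50.9 cpm against 43.6, 28.0 and 33.7 cpm (0.34, SE 0.174, adjusted p = 0.443). *lsm6* had 54.5, 45.7 and 68.3 cpm against 60.3, 30.03 and 32.9 cpm. In all 7 control 1 was inside the range of the CRISPR libraries. *lsm5* was the least counted of the 70, with 11 counts in its lowest library, and its interval from -0.53 to 1.35 shows little in either direction.

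**Figure D2:**
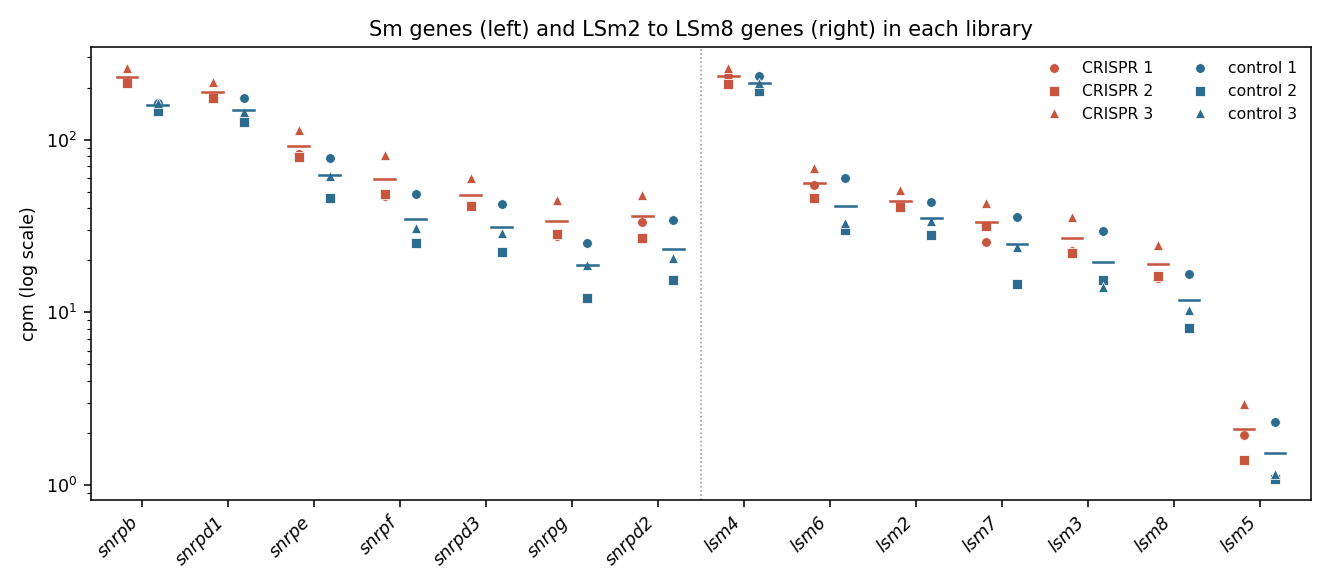
TMM-scaled cpm on a log axis for the 7 Sm genes (left) and the LSm2 to LSm8 genes (right) in each library, with CRISPR in red, control in blue, one symbol per replicate number and a bar at the group mean (n = 3). CRISPR 3 is the highest point for all 14 genes, and control 1 sits above the other controls in 13 of them.

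The Sm and LSm2 to LSm8 genes shared an order of libraries. CRISPR 3 was the highest library in 14 of the 14 genes, control 2 the lowest in 13, and control 1 the highest control in 13 and inside the CRISPR range in 11. As the median over the 7 Sm genes of the deviation from each gene's mean over 6 libraries, in log2 cpm, the CRISPR libraries stood at 0.16, 0.14 and 0.67 and the controls at 0.09, -0.75 and -0.36. For the 7 LSm2 to LSm8 genes the same medians were 0.08, 0.0048 and 0.64 in CRISPR and 0.37, -0.63 and -0.49 in control libraries. Differences inside a group were of like size to those between groups: CRISPR 3 exceeded the other CRISPR libraries by a median of 0.53 for the Sm and 0.60 for the LSm2 to LSm8 genes in log2 cpm, and control 1 exceeded the other controls by 0.73 and 0.92.

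Leaving out libraries moved these values. Over the 14 Sm and LSm2 to LSm8 genes the median log2 fold change was 0.49, and with 1 library left out at a time it ranged from 0.32 to 0.86, above 0 each time. The number of the 14 with an unadjusted edgeR p under 0.05 was 7 with all libraries, beside 6.79% of all genes higher at that p. With 1 library left out the number ranged from 2 to 12, with 2 without CRISPR 3 or without control 2 and 12 without control 1. Without both CRISPR 3 and control 1 the median was 0.60 and 12 of the 14 had such a p, and without both CRISPR 3 and control 2 the median was 0.13 and 1 of the 14 had one. Under the latter setting *snrpb* had a log2 fold change of 0.40, while *snrpf* stood at 0.26 and *snrpe* at 0.20. How many of all genes reached such a p with libraries left out is not given here.

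Ribosomal protein genes, which were looked at after these values were seen, ranked the libraries as the LSm2 to LSm8 genes did. The medians over 67 of them were 0.10, 0.02 and 0.46 in the CRISPR and 0.29, -0.57 and -0.29 in the control libraries, and all 67 had a log2 fold change above 0 with a median of 0.34. Control 2 was the lowest library for 66 of the 67 and CRISPR 3 the highest for 59. Markers of dividing cells were ordered differently, at 0.28, 0.69 and 0.57 in CRISPR against -0.49, -0.50 and -0.51 in control libraries, with no overlap. Whether the make-up of cells, RNA quality or library preparation takes part in the order of the Sm and LSm genes was not tested.

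**Figure D3:**
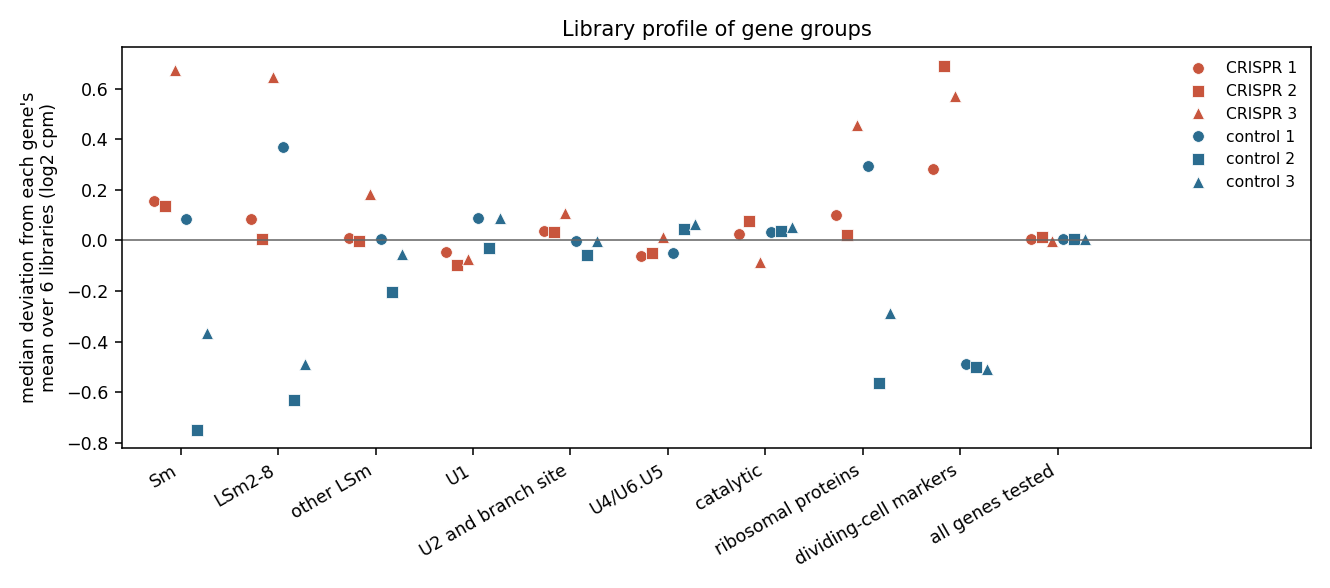
Median deviation of each gene group from its genes' means over the 6 libraries, in log2 cpm, one point per library (CRISPR red, control blue). Sm, LSm2 to LSm8 and ribosomal protein genes spread from -0.75 to 0.67 with CRISPR 3 highest and control 2 lowest, U1, U4/U6.U5 and catalytic genes stay near 0, and dividing-cell markers split cleanly by group.

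These differences went with the number of exon bins. The number of exon bins is the number of pieces into which the counting divides the exons of a gene model. It was 3 to 46 over the 70 genes and 4 to 11 for the Sm genes. The 14 Sm and LSm2 to LSm8 genes had a median of 6 bins and the other 56 genes 14.5, so bin number and ring membership overlap. The 10 genes with 3 to 5 bins had a median log2 fold change of 0.53, the 21 with 6 to 10 bins 0.17, the 23 with 11 to 20 bins 0.06 and the 16 with 21 or more -0.04. Over all genes tested these medians were 0.04, 0.03, -0.01 and -0.0020. Spearman's rho between the number of bins and the log2 fold change was -0.62 over the 70 genes and -0.06 over 14655 genes with a bin count. The number of bins went as closely with differences inside a group, at -0.60 for CRISPR 3 minus the other CRISPR libraries and -0.67 for control 1 minus the other controls, where the values over the 14655 genes were -0.13 and -0.22. These correlations run over genes of the same 6 libraries and are a description.

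**Figure D4:**
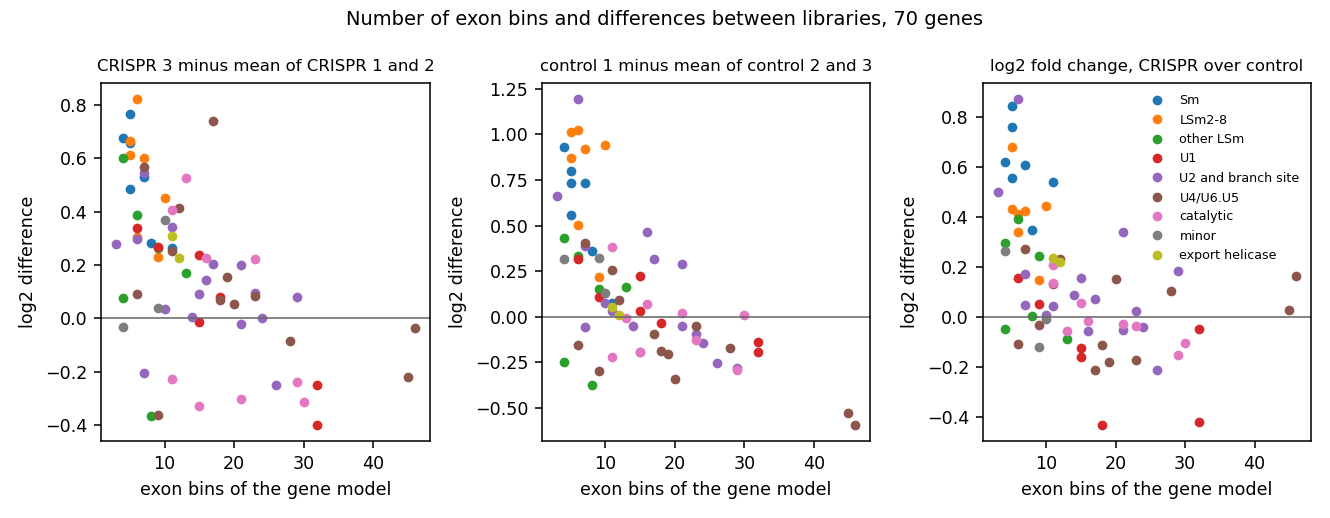
Exon bins of the gene model (x axis) against the log2 difference of CRISPR 3 from the mean of CRISPR 1 and 2 (left), of control 1 from the mean of controls 2 and 3 (middle) and of CRISPR from control (right), one point per gene, coloured by role. In all 3 panels genes with few bins tend to lie higher, and rho is -0.60, -0.67 and -0.62.

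The other *lsm* genes were less uniform, with 4 of 6 above 0 and a median of 0.12. *lsm1*, the subunit that replaces *lsm8* in the cytoplasmic ring of mRNA decay, had 24.9, 23.02 and 31.3 cpm in the CRISPR and 23.2, 16.5 and 20.6 cpm in the control libraries (log2 fold change 0.39, SE 0.178, edgeR adjusted p = 0.391). Only CRISPR 2 was below control 1 here. *lsm12* had 160.4, 151 and 187 cpm against 150.4, 127 and 143 cpm, with groups that touched without overlapping. *lsm14a* and *lsm14b*, a pair of paralogs, were at -0.09 (SE 0.104) and 0.0026 (SE 0.146).

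The genes grouped under U1 leaned the other way, with 2 of 7 above 0 and a median of -0.12. This group includes the *prpf39* and *prpf40* genes, placed there as homologs of yeast U1 proteins. *prpf39.1* encodes a homolog of the yeast U1 protein Prp39, and it had 125, 107 and 122 cpm in the CRISPR and 156, 164 and 157 cpm in the control libraries. The groups lay far apart, and its spread within groups was small (SD 0.0910 in log2 cpm). The log2 fold change was -0.43 (SE 0.0979, edgeR adjusted p = 0.122), and it lay between -0.48 and -0.37 over all alternatives. Its paralog *prpf39.2* had 38.2, 30.3 and 33.7 cpm against 37.6, 32.3 and 41.9 cpm, with overlapping groups and a log2 fold change of -0.12 (SE 0.146).

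*prpf40b*, a homolog of the yeast U1 protein Prp40 that in yeast bridges the ends of the intron, was the other U1 gene with separate groups. It had 161, 165 and 123 cpm in the CRISPR and 183, 214 and 205 cpm in the control libraries (log2 fold change -0.42, SE 0.125, edgeR adjusted p = 0.221). Here CRISPR 3 was the lowest library, opposite to its place among the Sm genes. Over the alternatives the value lay between -0.50 and -0.25, nearest to 0 without both CRISPR 3 and control 2.

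Within the U1 group *snrnp70*, *snrpc* and *snrpa* differed less, and *snrpc* and *snrpa* were the 2 above 0. *snrnp70*, which encodes the U1-70K protein, had 575, 558 and 667 cpm in the CRISPR and 743, 619.6 and 653 cpm in the control libraries (log2 fold change -0.16, SE 0.102, edgeR adjusted p = 0.527). *snrpc* had 262, 241 and 318 cpm against 283, 209 and 246 cpm (0.15, SE 0.135), and *snrpa* was at 0.05 (SE 0.126). *snrpc* has 6 exon bins and followed the order of the Sm genes, with CRISPR 3 highest and control 2 lowest.

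Among the 16 genes of U2 and branch site recognition 12 were above 0 and the median was 0.06. An unadjusted edgeR p under 0.05 was reached by 3, all higher in CRISPR, beside 6.79% of all genes. *u2af1*, the small subunit that reads the AG at the end of the intron, had 13.6, 13.8 and 16.9 cpm in the CRISPR and 12.6, 4.70 and 6.46 cpm in the control libraries. The groups were apart, by a narrow margin at control 1 and a wide one at the other controls. The log2 fold change was 0.87 (SE 0.315, edgeR adjusted p = 0.304), and over the alternatives it ran from 0.47 without both CRISPR 3 and control 2 to 1.44 without control 1.

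The large subunit and the branch point binder varied less. *u2af2*, which binds the polypyrimidine tract, had 555, 557 and 558 cpm in the CRISPR and 512, 519.7 and 541 cpm in the control libraries, the smallest spread within groups of all 70 genes (SD 0.0290 in log2 cpm). Its groups did not overlap, but the difference was small, at 0.09 (SE 0.0767, edgeR adjusted p = 0.669). *sf1*, which recognises the branch point first, was at 135, 159 and 156 cpm against 123, 145 and 136 cpm (0.16, SE 0.107).

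The SF3 subunits clamp U2 to the branch site. *sf3b1*, the phosphorylation target named above, had 248, 313 and 278 cpm in the CRISPR and 269, 288 and 307 cpm in the control libraries, with full overlap and a log2 fold change of -0.04 (SE 0.106, 95% interval -0.28 to 0.20). *sf3b5*, one of the smallest subunits with 3 exon bins, had 49.4, 44.9 and 57.2 cpm against 47.0, 26.1 and 33.8 cpm (0.50, SE 0.200, edgeR adjusted p = 0.343). *sf3a1* had 133, 135 and 112 cpm against 130.2, 153 and 157 cpm (-0.21, SE 0.113). The other SF3 genes lay between -0.05 for *sf3b2* and 0.18 for *sf3b3*. *snrpb2*, which encodes a U2-specific protein, was at 46.5, 40.7 and 50.05 cpm against 41.1, 31.5 and 36.0 cpm (0.34, SE 0.141, adjusted p = 0.357), and only CRISPR 2 was below control 1.

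The U4/U6.U5 group had a median of 0.03 over 13 genes. It showed no gene at an unadjusted edgeR p under 0.05, beside 6.79% of all genes higher and 6.14% lower. *prpf8*, the protein at the heart of the spliceosome that holds the RNA active site, had 122, 169 and 123 cpm in the CRISPR and 105, 161 and 142 cpm in the control libraries (log2 fold change 0.03, SE 0.174). *snrnp200* and *prpf8*, the genes with the most exon bins, both had their lowest library in control 1, opposite to the Sm genes. *ddx23*, the helicase that releases U1, had 53.5, 61.0 and 60.5 cpm against 64.3, 69.0 and 64.3 cpm, and these groups did not overlap (-0.18, SE 0.108, edgeR adjusted p = 0.521). *prpf4b*, a kinase of the tri-snRNP, was at -0.18 (SE 0.110), and the paralogs *prpf38a* and *prpf38b* at 0.13 (SE 0.131) and -0.11 (SE 0.117).

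*prpf31*, which joins U4/U6 to U5, had the widest spread of the U4/U6.U5 genes (SD 0.466 in log2 cpm). Its cpm were 34.7, 40.5 and 62.6 in the CRISPR and 49.3, 37.6 and 73.9 in the control libraries. CRISPR 3 and control 3 were the highest of their groups, the groups overlapped, and the log2 fold change was -0.21 (SE 0.262).

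The 9 genes of the catalytic steps had 3 values above 0 and a median of -0.03. None had an unadjusted p under 0.05 in edgeR, beside 6.79% of all genes higher and 6.14% lower. *dhx8*, the helicase that releases spliced mRNA, had 95.5, 108 and 85.9 cpm in the CRISPR and 93.2, 114 and 114 cpm in the control libraries (log2 fold change -0.15, SE 0.124). *cwc15* had 101, 90.3 and 127 cpm against 109, 76.5 and 90.6 cpm (0.21, SE 0.158). Both pairs of groups overlapped. Among the 3 genes of the minor spliceosome, which removes a rare class of introns, *snrnp35* was at 16.4, 14.5 and 15.1 cpm against 14.7, 11.8 and 11.7 cpm (0.26, SE 0.163) and *snrnp25* at -0.12 (SE 0.188).

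The paralogous helicases *ddx39a* and *ddx39b* had small fold changes of like size. *ddx39a* had 362, 348 and 440.4 cpm in the CRISPR and 334, 321 and 324 cpm in the control libraries (log2 fold change 0.23, SE 0.103, edgeR adjusted p = 0.380). *ddx39b* had 183, 200.5 and 224 cpm against 175, 177 and 170.2 cpm (0.22, SE 0.0994, adjusted p = 0.391). In both every CRISPR library was above every control, and CRISPR 3 was highest. Whether the paralogs share reads was not tested.

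**Figure D5:**
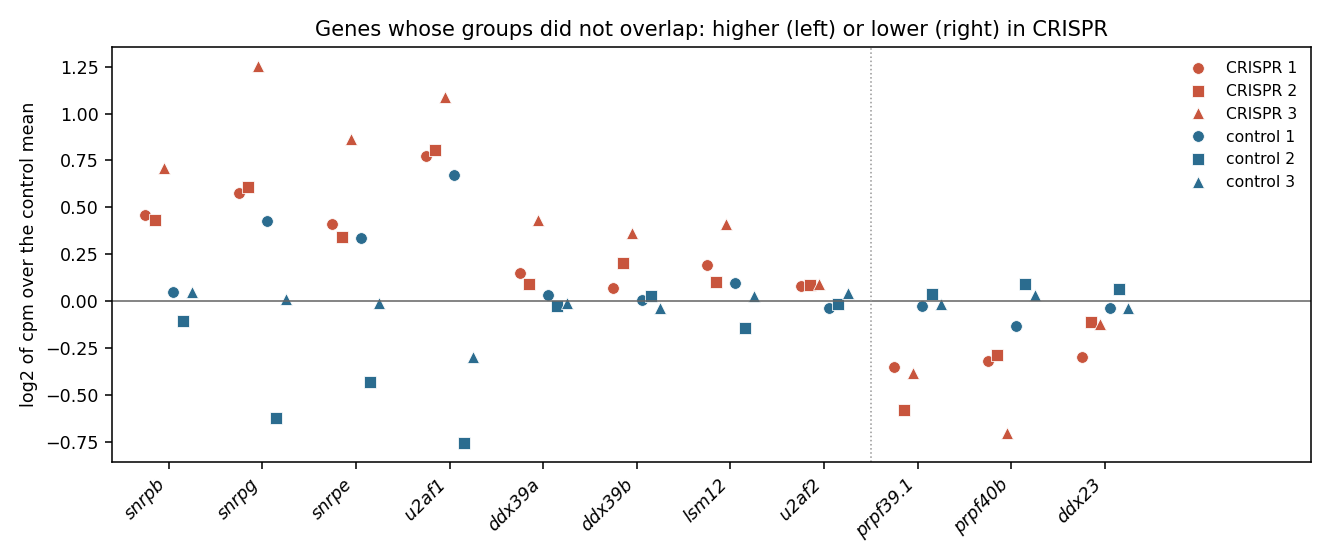
Log2 of the cpm of each library over the control mean for the 8 genes in which all CRISPR libraries exceeded all controls (left) and the 3 in which all were below (right), with CRISPR in red and control in blue. *snrpb* and *prpf39.1* show a clear gap, while for *lsm12*, *u2af1*, *snrpe* and *snrpg* control 1 sits close to the CRISPR libraries. The gap is narrowest for *lsm12* and *snrpe*, where CRISPR 2 lies just above control 1.

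In control brains the genes with the most counts were *snrnp70* (672 cpm), *u2af2* (524 cpm), *ddx39a* (326 cpm), *sf3b1* (288 cpm) and *snrpc* (246 cpm). These 5 held 29.03% of the control counts of the 70 genes. Cpm values follow transcript length as well as number, and no lengths were used here, so the order says only where the counts were. The median SD within groups was 0.179 in log2 cpm for the 70 genes, beside 0.218 for all genes tested, and it was 0.392 for the Sm and 0.450 for the LSm2 to LSm8 genes. The largest belonged to *lsm5*, at 0.564.

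Of splicing genes outside the symbol rule, 153 of 171 listed were tested and none was called by edgeR. An unadjusted edgeR p under 0.05 was found for 21 with a higher and 6 with a lower mean in CRISPR, beside 6.79% and 6.14% of all genes. DESeq2 called 4 of the 153 higher, beside 1.15% of all genes. The hnRNP proteins, which coat pre-mRNA and steer splice site choice, held 10 of the 21 among 28 tested, beside the same 6.79% of all genes. Their median log2 fold change was 0.16, in a range from -1.38 to 0.90. In 10 of the 28 every CRISPR library stood above every control and in 1 below, beside 9.13% and 9.72% of all genes. *hnrnpa2b1* had 158, 163 and 248 cpm in the CRISPR and 119, 98.1 and 85.7 cpm in the control libraries (0.90, SE 0.183, edgeR adjusted p = 0.102). *hnrnph1* had 202, 224 and 268 cpm against 158, 159.8 and 172 cpm (0.50, SE 0.115, adjusted p = 0.122). In both, every CRISPR library was above every control, and DESeq2 gave *hnrnpa2b1* an adjusted p of 0.000685, the lowest of its alternatives, which ran up to 0.352.

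The SR proteins, which bind exonic enhancers, went both ways. Of the 13 tested 3 lay higher and 3 lower in CRISPR with an unadjusted edgeR p under 0.05, beside 6.79% and 6.14% of all genes. *srsf3* had 362, 361 and 449 cpm in the CRISPR and 330.3, 298 and 311 cpm in the control libraries (log2 fold change 0.32, SE 0.106, adjusted p = 0.267). *srsf5* had 1853, 1586 and 1809 cpm against 2289, 1924 and 2141 cpm (-0.28, SE 0.0922, adjusted p = 0.269). The groups of each stood apart. Their kinases, the 6 CLK and SRPK genes tested, had a median of 0.09 and none at that p.

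The SMN complex and its partners load the Sm ring onto snRNA, and 13 of the 15 tested were above 0, with a median log2 fold change of 0.20. Of the 15, 1 was higher at an unadjusted edgeR p under 0.05, beside 6.79% of all genes. In 5 all CRISPR libraries were on top, beside 9.13% of all genes. *wdr77*, part of the methylosome that modifies Sm proteins, had 65.4, 62.0 and 91.7 cpm in the CRISPR and 55.5, 51.3 and 54.8 cpm in the control libraries (0.44, SE 0.152, edgeR adjusted p = 0.285). *prmt5*, its methyltransferase partner, was at 0.20 (SE 0.0998). The groups of both stood apart, for *prmt5* by little.

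The remaining lists had medians from 0.02 to 0.14, beside 0.09 for the 70 genes and 0.01 for all genes. The 17 genes of the exon junction complex and of mRNA export had a median of 0.14, with *alyref*, an export adaptor, at 0.53 (SE 0.161, edgeR adjusted p = 0.231) and *magoh* at 0.66 (SE 0.302). The 31 factors of the Prp19 and catalytic complexes outside the rule had a median of 0.02, with *srrm1* at 619, 695 and 477 cpm against 707, 905 and 899 cpm (-0.49, SE 0.143, adjusted p = 0.220) and *bcas2* at 0.39 (SE 0.156). The 17 tri-snRNP factors had a median of 0.08, with *txnl4a*, a small U5 protein, at 0.60 (SE 0.195) and *snu13* at 0.37 (SE 0.139). The 17 U1 and U2 auxiliary factors had a median of 0.04, with *phf5a*, a small SF3B partner, at 0.77 (SE 0.305) and *rbmx2* at -0.29 (SE 0.146), and the 9 minor spliceosome factors a median of 0.05, with *rnpc3* at -0.29 (SE 0.102) and *zmat5* at 0.32 (SE 0.161).

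Exon usage inside the 70 genes was compared through their exon bins. Of 990 bins listed 970 had counts and were tested, none in a model merged from overlapping genes. No bin was called, as among the 214537 bins of all genes (0%), and 6 had an unadjusted p under 0.05 in edgeR's diffSpliceDGE, where 1.07% of all bins did. The exon usage model of DEXSeq, fitted as an alternative, called none either, but only 448 of the 970 bins had an adjusted p and could be called. It put 36 of the 970 under an unadjusted p of 0.05, and its share over all bins is not given here. The edgeR share of 1.07% is far under 0.05, so that test was cautious and its empty result does not show unchanged exon usage. The study's own DEXSeq run reported sites of differential exon usage, and whether any lie in the 70 genes was not checked. In 39 bins the share of the gene's counts was higher in every CRISPR library than in every control and in 54 lower, beside 3.96% and 4.39% of all bins. The smallest p belonged to bin 22 of *ddx46*, the helicase that remodels U2, with 8.69%, 7.18% and 8.07% of the gene's bin counts in the CRISPR and 8.57%, 4% and 4.46% in the control libraries. Control 1 was inside the CRISPR range there, as it was above it for bin 2 of *dhx16*, with 6.66%, 6.08% and 7.14% against 7.44%, 3.52% and 3.12%.

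Another 3 of the 6 bins were thinly counted. Bin 2 of *snrpb2* averaged 0.222% against 0.479% and bin 3 of *snrpa* 0.0640% against 0.242%, both with every CRISPR library below every control and at most 21 counts in a library. Bin 1 of *prpf3* had 2, 0 and 3 counts against 0 in each control, too few to compare.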

How the data were processed

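Per the labels the libraries were polyA-selected and unstranded. The authors mapped the reads with STAR v2.7.3 onto XenBase v9.1. They deposited raw counts for 34229 gene models, raw counts for exon bins, and log2 values. The deposited log2 values equal log2(cpm + 1) of the raw counts to within 1e-08 and cover 15076 distinct models on 15079 lines, those above 1 cpm in 3 or more libraries, which was the filter used here. The sources used here give neither the strand setting of the counting nor the DEXSeq version, and genes on opposite strands of one place cannot be told apart. Counters that name no gene were left out throughout. They held 5.02% to 5.62% (no exon) and 0.463% to 0.526% (ambiguous) of a library's exon-level counts.

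The raw gene counts were fitted with edgeR 4.0.16 in R 4.3.3 (TMM, quasi-likelihood F test, no covariate, Benjamini-Hochberg adjustment over the 15076 genes). Cpm values use TMM-scaled library sizes, and log2 cpm adds a prior count of 1. SEs are the log2 fold change divided by the root of F. Exon bins were tested with diffSpliceDGE on gene models with at least 5 bin counts. DESeq2 1.42.0, limma 3.58.1, other size factors, other filters, a replicate block and leaving out libraries were alternatives. DESeq2, the tool of the study's methods, was run without shrinkage. Replicates differed beyond sampling noise (chi-square of counts per degree of freedom at least 6.55). With 3 libraries a group an exact permutation test cannot go below p = 0.1, so none was used.

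The symbol rule reads no values, but it, the role groups and the lists were chosen with earlier results of these data known. Named are the 6 genes of smallest p in each direction, 2 per role group, the 5 with most counts in controls, the paralog pairs, the extremes of spread, *dyrk1a*, 2 genes per list and 5 of the 6 bins of smallest p. Genes outside that rule were named after their values were seen. They are the remaining Sm genes, *lsm6*, *prpf39.2*, *prpf31*, *prpf8*, *snrnp200*, *snrpa*, *snrpb2*, *sf1*, *sf3b2*, *sf3b3*, *lsm7*, *lsm10*, *snrnp27*, *snap25*, *fabp7* and *dyrk1a.2*. The single values of 1 of the 70 genes are not reported here. No genome or sequence table was used.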

Additional observations from a re-analysis of the deposited data

How the results depend on the processing

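No adjusted p of the 70 genes passed 0.05 under limma-voom, RLE or upper-quartile factors, edgeR's own filter, the deposited log2 values with limma, the replicate block or any library left out. DESeq2 called 1 higher and 1 lower, and edgeR without the filter called 1 higher, beside 0.502% of all genes. The number higher at an unadjusted p under 0.05 was 17 with the deposited log2 values, 2 to 19 with 1 library left out (2 without CRISPR 3 or control 2, 19 without control 1), 15 without both CRISPR 3 and control 1 and 1 without both CRISPR 3 and control 2. Genes with every CRISPR library above every control numbered 6 with DESeq2, RLE or upper-quartile factors, no filter or edgeR's own filter, beside 8 in the main fit. They numbered 15 by the deposited log2 values, 28 without both CRISPR 3 and control 1, 10 without both CRISPR 3 and control 2 and 7 to 26 with 1 library left out. Those below numbered 11 and 13 without CRISPR 3 and control 1 or 2, and 3 to 8 with 1 left out. In the main fit 9.13% of all genes stood above and 9.72% below. With fewer libraries groups separate more easily. The shares of all genes under the other settings are not given here, so these counts cannot be read as a trait of the 70. Both pairs of libraries left out together were chosen after seeing the data. The median log2 fold change of the 70 ran from -0.0073 without both CRISPR 3 and control 2 to 0.12 with the deposited log2 values.

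For the splicing lists DESeq2 and the fit without the filter called 4 higher each, beside 1.15% and 0.502% of all genes. Without both CRISPR 3 and control 1, 1 was called, a setting whose share over all genes is not given here. At an unadjusted p under 0.05 the lists held 10 to 34 higher with 1 library left out, 23 without both CRISPR 3 and control 1, 9 without both CRISPR 3 and control 2, and 2 to 7 lower over these. Exon bins under that p numbered 3 to 19 with 1 library left out and 36 in the DEXSeq model, where 448 of 970 bins had an adjusted p. The shares over all bins under these settings are not given here.

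Of the 70 genes 31 turned sign under at least 1 alternative, 3 of them under one that left out no library. Of the 31, 25 had a log2 fold change within 0.2 of 0. The other 6 were *cwc15*, *lsm5*, *lsm7* (lowest -0.080), *lsm10* (-0.039) and *snrnp27* (-0.052), all without both CRISPR 3 and control 2, and *prpf31* (0.077 without control 3, -0.70 without both CRISPR 3 and control 2). With libraries left out, 1 at a time or as both pairs, the log2 fold changes ran from -0.059 to 0.36 for *cwc15*, -0.24 to 0.0047 for *snrnp25*, -0.13 to 0.034 for *sf3b1*, -0.072 to 0.28 for *snrpc*, -0.015 to 0.23 for *prpf38a*, -0.11 to 0.21 for *lsm14b*, -0.13 to 0.92 for *lsm5*, -0.15 to 0.25 for *prpf8* and -0.29 to 0.25 for *dyrk1a*, which stood at 0.011 with the deposited log2 values. The cause was not tested.

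The replicate numbers come from the sample titles, which do not say whether equal numbers share a source. The correlations of same-numbered deviations were -0.11, 0.19 and -0.04, and those of differently numbered ones ran from -0.28 to 0.30. With the replicate block none was called, and an unadjusted p under 0.05 was found for 15 of the 70 upward, 2 downward and 9 exon bins. The shares over all genes and all bins with the block are not given here. These counts therefore cannot be read as a trait of the 70. Control 3 had the fewest counts, and *lsm5*, with 11 counts in its lowest library, is the gene most limited by depth.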
